A study of Mus musculus with 20 samples.

Results

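The results describe 170 of the 42006 distinct 60-base probes on an Agilent 2-colour mouse oligonucleotide array, selected on measured values because their signal was raised on the first day of untreated culture. The cells were ES_ZERT #18, a V6.5 line of embryonic stem (ES) cells from the mouse that had been transfected with a pCAG-Zscan4-ERT2 construct. V6.5 cells come from an F1 hybrid of C57BL/6 and 129/Sv mice. All groups carried the transgene and all were from 1 clone, so no group lacks it. Cells grew as a monolayer on gelatin in ES medium with LIF, and tamoxifen was used at 200 nM. The 10 groups were day 0, untreated day 1 and untreated day 2, 4 groups kept in tamoxifen and sampled on days 1, 2, 3 and 4, and 3 groups given tamoxifen on day 1 only, then sampled on days 2, 3 and 4 after its withdrawal. Each group had 2 arrays, and the labels do not say whether these were separate cultures.

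Zscan4 proteins are zinc finger and SCAN domain proteins of the early mouse embryo, and in ES cell cultures a small share of the cells expresses them at any one time. ERT2 is a mutated ligand-binding domain of the oestrogen receptor that holds its fusion partner inactive until tamoxifen binds. The pCAG promoter is active in most cell types. An untreated day 1 sample is therefore a control for time in culture, and day 1 with tamoxifen is the matched treated sample.

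Every array held the sample in the Cy3 channel and a common reference in the Cy5 channel. The reference was a pool of RNA from 11 mouse cell lines mixed with RNA of 129 ES cells. Values are log2 ratios of sample over reference, given on 2 scales. The selection scale used Agilent's processed signals with the array median subtracted. The loess scale used background-corrected mean signals with an offset of 50, normalized within each array, and it compresses the ratios of dim spots. Per array, the sample channel exceeded background clearly for 26199 to 30069 probes. The 2 arrays of a group had an r of 0.9845 to 0.9954 over the 29414 probes that entered the tests. The arrays lay on 5 slides, with day 0 and untreated day 1 on the first, day 1 in tamoxifen and untreated day 2 on the second, and days 2, 3 and 4 of the tamoxifen schedules on the others. Since no group was spread over slides, slide and day cannot be told apart in comparisons between slides.

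The probes had to be well above background on both untreated day 1 arrays, which 26921 were. On the selection scale, 871 of these were at least 0.8 above day 0 on untreated day 1. Of those, 392 were within 0.3 of day 0 on untreated day 2, 230 also had continued tamoxifen within 0.3 of the untreated cells on day 2, and 170 also had day 4 after withdrawal within 1 of day 0. The members just inside the limit were Z00031382-1 at 0.8002, Z00034612-1 at 0.8005 and Z00030478-1 at 0.8014. The probes just outside it were Z00029844-1 at 0.7963, Z00031477-1 at 0.7959 and Z00062754-1 at 0.795. Values of day 0, untreated days 1 and 2, continued day 2 and withdrawn day 4 entered the selection, so they are given as descriptions with no test. Day 1 in tamoxifen, withdrawn days 2 and 3 and continued days 3 and 4 did not enter it.

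The working description of these probes was that they rose on untreated day 1 only, and the day 1 tamoxifen arrays, which the selection did not use, go against it. The same probes were high there too, so they are called day 1 probes below. The arrays give no gene name for any probe, and no identifier matched a symbol, synonym or accession in the mouse gene table, so each probe is identified by its sequence. For the same reason markers of ES cells or of other cell types could not be read. The first set below holds the 3 probes with the largest called difference between day 1 in tamoxifen and day 2 after withdrawal, then the 2 with the largest difference between days 3 and 2, and the 3 with the largest fall on day 4. Sequences run 5′ to 3′ as deposited, and capitals mark AATAAA, the usual polyadenylation signal, where it occurs.
Z00075216-1: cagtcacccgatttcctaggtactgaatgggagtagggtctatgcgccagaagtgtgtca
Z00074777-1: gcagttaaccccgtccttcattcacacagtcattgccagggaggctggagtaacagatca
Z00025779-1: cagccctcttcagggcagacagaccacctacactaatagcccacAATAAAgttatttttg
Z00038589-1: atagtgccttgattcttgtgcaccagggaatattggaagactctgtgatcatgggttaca
Z00041299-1: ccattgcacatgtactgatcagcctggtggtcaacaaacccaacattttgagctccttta
Z00000601-1: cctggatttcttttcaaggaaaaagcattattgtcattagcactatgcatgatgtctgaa
Z00008992-1: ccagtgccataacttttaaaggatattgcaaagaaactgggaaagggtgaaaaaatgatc
Z00062769-1: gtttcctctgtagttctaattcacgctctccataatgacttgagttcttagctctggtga

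The next set holds the members that share at least 20 bases with another member, and capitals mark the longest run common to the group. Z00021796-1 and Z00074076-1 share 27 bases at opposite ends, so their targets overlap on 1 strand. Z00026891-1 and Z00061144-1 share 49 bases, but on opposite strands. The other three, Z00033919-1, Z00034075-1 and Z00070676-1, share a run of 20 bases.
Z00021796-1: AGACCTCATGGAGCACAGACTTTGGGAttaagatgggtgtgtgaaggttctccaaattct
Z00074076-1: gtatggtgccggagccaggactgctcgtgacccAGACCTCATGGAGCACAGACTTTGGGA
Z00026891-1: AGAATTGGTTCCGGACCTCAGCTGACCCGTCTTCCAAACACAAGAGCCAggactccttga
Z00061144-1: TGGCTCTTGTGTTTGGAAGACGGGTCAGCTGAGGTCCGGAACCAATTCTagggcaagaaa
Z00033919-1: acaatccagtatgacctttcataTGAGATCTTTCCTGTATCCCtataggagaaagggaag
Z00034075-1: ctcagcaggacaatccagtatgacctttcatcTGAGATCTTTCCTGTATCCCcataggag
Z00070676-1: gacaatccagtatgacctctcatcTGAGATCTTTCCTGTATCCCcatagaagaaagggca

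Only promoter windows of 300 bases, from 250 before to 50 after a RefSeq gene start, could be searched for the positions of the probes, and 2 of the 170 matched one along their whole length. In all, 267 probes, 0.636% of those on the array, had such a match. The probes are shown because they are the members that can be tied to a place in the genome, on the GRCm38.p6 build.
Z00075269-1: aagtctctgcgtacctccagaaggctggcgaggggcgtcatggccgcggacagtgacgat
Z00052174-1: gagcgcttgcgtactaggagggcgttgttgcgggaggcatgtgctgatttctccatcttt
Z00075269-1 lies on the minus strand at chr4:116807499-116807558. That is the strand of Toe1, which encodes a deadenylase of small nuclear RNA processing, and the probe begins 1 base downstream of that gene's annotated first base. Mutyh, encoding an adenine DNA glycosylase, starts close by on the plus strand, and the probe lies in its promoter window, opposite to its strand. Z00052174-1 lies on the minus strand at chr5:151368448-151368507, inside the annotated span of Stard13 and on its strand. The only Stard13 start among the windows searched is at chr5:151190193, and the probe lies far upstream of that start. The probe's position is also in the promoter window of the long noncoding RNA 1700028E10Rik on the plus strand. This probe therefore cannot be given to a gene from the window alone.

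On day 1 the probes were raised to nearly the same level without and with tamoxifen. In these bulk samples, a change in RNA per cell and a change in the share of cells that express it cannot be told apart. On the loess scale, the median over the 170 probes of the difference from day 0 was 0.65 and 0.73 on the untreated day 1 arrays. It was 0.61 and 0.59 on the arrays of day 1 in tamoxifen, which lay on another slide. On the remaining arrays it ran from -0.19 to 0.13. All 4 day 1 arrays stood apart from the 16 others in this median. The selection favoured this for untreated day 1 against day 0, untreated day 2, continued day 2 and withdrawn day 4. Of the day 1 arrays, only those in tamoxifen were outside it, and the day 0 values they are set against entered it. These medians and the counts below are therefore descriptions. By group, the median was 0.68 on untreated day 1 with a range of -0.55 to 1.40, and 0.60 on day 1 in tamoxifen with a range of -0.38 to 1.25, against -0.01 over all tested probes in both. The difference was above 0 in 165 of the 170 probes in tamoxifen, against 48.8% of all probes tested. On the selection scale the medians were 0.94 and 0.85, and 98 members reached 0.8 in tamoxifen, which 4.35% of the tested probes did.

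For 147 of the 170 probes, both day 1 tamoxifen arrays were above all 16 arrays of other days, a pattern that 13.4% of the tested probes had. Of the 8 groups on other days, 4 entered the selection, so this count is a description. All 4 day 1 arrays were above the 16 others for 143 probes, against 8.36% of the tested probes. The 2 untreated day 1 arrays were above all 18 others for 57, against 5.96% of the tested probes. Untreated day 1 chose the members, so nothing is read from these counts.

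Between the day 1 groups the probes differed little on the loess scale. The difference of tamoxifen from no tamoxifen had a median of -0.06 there and ran from -0.47 to 0.22, with 162 of the 170 within 0.3. The other 8 were lower by at least 0.3, as were 5.5% of the tested probes, so the low count is not particular to the members. On the selection scale the range was -1.53 to 0.82, with 138 members within 0.3. On that scale 28 were lower by at least 0.3, against 13.1% of the tested probes. On the loess scale, both untreated arrays were above both tamoxifen arrays for 61 members, where 25.5% of the tested probes had that order. The reverse order held for 23 members, against 27.6% of the tested probes. The selection asked for high untreated values, which favours the first order, and the slides differ, so nothing is read from these counts.

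Z00075216-1, well above background on every array, had the largest loess-scale difference between untreated day 1 and day 0, 1.40. Its loess log2 ratios were -0.48 and -0.38 on day 0 and 0.89 and 1.05 on untreated day 1. On day 1 in tamoxifen they were 0.76 and 0.68. Untreated day 2 gave -0.40 and -0.47, continued day 2 gave -0.35 and -0.36, and withdrawn day 2 gave -0.54 and -0.45. The 4 day 1 arrays lay far above the rest, and the day 2 arrays were back among the day 0 values. On day 3 it read -0.27 and -0.29 after withdrawal and -0.21 and -0.28 in tamoxifen. On day 4 it was below day 0, at -0.96 and -0.88 after withdrawal and -0.80 and -0.96 in tamoxifen.

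Z00074777-1 was low against the reference throughout and showed the same course. It read -2.35 and -2.31 on day 0, -1.10 and -1.21 on untreated day 1 and -1.13 and -1.03 on day 1 in tamoxifen. On day 2 it read -2.07 and -2.26 untreated and -2.14 and -2.21 after withdrawal, and on day 4 -2.74 and -2.75 in continued tamoxifen. The day 1 groups of this probe overlapped each other and no other group.

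Z00025779-1, whose sequence carries AATAAA near its end, had a larger gap between the day 1 groups. Its ratios were 0.15 and 0.10 on day 0, 1.03 and 1.35 on untreated day 1, and 0.71 and 0.74 on day 1 in tamoxifen. They were -0.19 and -0.29 on day 2 after withdrawal. Both tamoxifen arrays were above day 0 and below both untreated day 1 arrays.

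Z00054919-1 and Z00043172-1 had similar values. The first read -0.74 and -0.80 on day 0, 0.23 and 0.30 on untreated day 1 and 0.12 and 0.13 on day 1 in tamoxifen. The second read -0.75 and -0.66, 0.24 and 0.29, and 0.13 and 0.10 on the same arrays. Z00046008-1 read -0.27 and -0.18 on day 0, 0.64 and 0.58 on untreated day 1, and 0.61 and 0.55 in tamoxifen, so its day 1 groups overlapped. Z00025364-1 read -0.17 and -0.09 on day 0, 0.80 and 1.03 on untreated day 1, and 0.71 and 0.65 in tamoxifen.

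The 10 members with the largest selection-scale difference whose untreated day 1 arrays were above all others on that scale included several dim probes. Z00022212-1, at 2.61 the largest, was not well above background on either day 0 array, and its sample signal on untreated day 1 was at least 1.12-fold higher than on day 0, and at least 1.20-fold in tamoxifen. On the loess scale the differences from day 0 were 0.26 and 0.25. Z00078177-1, at 2.13 on the selection scale, was at least 1.12-fold above day 0 on untreated day 1 and was not well above background in any other group. Z00032034-1, at 1.30, was at least 1.13-fold higher and differed by 0.08 on the loess scale. Of the rest, Z00070000-1 read 0.08 and 0.13 on day 0, 0.78 and 0.70 on untreated day 1, and 0.44 and 0.42 in tamoxifen, again on the loess scale. Z00071365-1 read -0.07 and 0.04, then 0.27 and 0.38, and 0.31 and 0.25 in the same groups.

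The scales differed most in the dim probes. The 139 members well above background on all 20 arrays had medians of 0.78 on untreated day 1 and 0.67 on day 1 in tamoxifen on the loess scale, and 0.92 and 0.84 on the selection scale. For the 31 others the loess medians were 0.26 and 0.23 and the selection-scale medians 1.07 and 0.94. The members were also dimmer than the probes they were drawn from. Their mean log2 sample signal over the 20 arrays, relative to each array's median, had a median of 1.08, against 2.68 for the probes above background on both untreated day 1 arrays. On 1 or more arrays 3 members were saturated.

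At the top of the day 1 tamoxifen values were Z00054271-1 at 2.25, Z00055759-1 at 2.10 and Z00022212-1 at 2.06 above day 0 on the selection scale. None of these was well above background on either day 0 array, and as bounds they were at least 1.34-fold, 1.28-fold and 1.20-fold higher in the sample channel. On the loess scale Z00054271-1 read -1.13 and -1.14 on day 0, -0.89 and -0.91 on untreated day 1, and -0.79 and -0.64 in tamoxifen. It was thus one of the probes with both tamoxifen arrays above both untreated day 1 arrays.

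At the other end, Z00021415-1 differed from day 0 by 0.05 in tamoxifen on the selection scale. Its loess ratios were -0.68 and -0.63 on day 0, -0.48 and -0.34 on untreated day 1 and -0.60 and -0.63 in tamoxifen. Z00031672-1, not well above background on either day 0 array or in day 1 tamoxifen, was at -0.27 on the selection scale. The lowest of all, Z00017162-1, was at -0.66.

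Z00017162-1 owed its place to 1 spot. On the selection scale it read 0.78 and 1.03 on day 0, 3.64 and -0.08 on untreated day 1, and 0.20 and 0.29 in tamoxifen. Its spot on the first untreated day 1 array had one of 6 local backgrounds there above 10 times the array's median, and the scanner software marked it as non-uniform. The loess fit left that spot out. On the other arrays the probe was lower on day 1, going from 0.41 and 0.55 on day 0 to -0.07 on the second untreated array and 0.06 and 0.14 in tamoxifen. The software also marked the first untreated day 1 spot of Z00010327-1 and of Z00031805-1, which read 3.51 and 1.70 there on the selection scale. On the second array these read 0.66 and -0.05, against day 0 values of 0.61 and 0.35 and of -0.20 and -0.13. So 3 of the 170 members rested on a marked spot, and their untreated day 1 loess values come from 1 array.

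The rise was in the sample channel. With each channel's processed log2 signal centred on its array median, the members' sample signal on untreated day 1 differed from day 0 by a median of 1.01. The selection asked for a rise in the ratio on these same arrays, so that value is a description. On day 1 in tamoxifen, set against the same day 0 arrays, the members' sample signal differed by a median of 0.91. The reference channel moved by 0.02 and 0.03. The authors' deposited value table held 107 of the probes and gave medians of 0.96 and 0.86 in log2 units. Over the 18098 tested probes it held, both medians were 0.0.

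Slides 1 and 2 have no array in common, but the selection used groups on both. On slide 1, untreated day 1 minus day 0 was itself the selection. Untreated day 2, the baseline on slide 2, was held within 0.3 of day 0 by the selection, so only the day 1 tamoxifen arrays are outside it here. On slide 2, day 1 in tamoxifen minus untreated day 2 had a loess median of 0.50, with 167 of the 170 above 0, against 50.3% of the tested probes. Across the 170 probes the 2 differences correlated at r = 0.852, and across the 29414 tested probes at 0.619. Without Z00017162-1 the members' r was 0.842, and on the selection scale it was 0.638. These are descriptions across probes, which are not independent and share the reference RNA and the slide of their day. Tamoxifen and day differ together on slide 2, so their parts in that difference cannot be told apart.

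The first test on groups outside the selection compared day 1 in tamoxifen with day 2 after withdrawal, on slides 2 and 3. Here 150 of the 170 probes were higher on day 1, 1 was lower and 19 were not called by limma at an adjusted p under 0.05. Among all tested probes 18.2% were higher and 21.4% lower. The median difference was 0.48, with a range of -0.36 to 1.21, against 0.00 over all tested probes, of which 95% lay between -0.71 and 0.55. The members' count in this direction is above the background share, but untreated days 1 and 2 entered the selection, and the groups compared lay close to them. Day 1 in tamoxifen differed from untreated day 1 by a median of -0.06 over the members. The selection thus favoured this direction, and the count is a description. Z00075216-1 was higher by 1.21 (SE 0.068, limma adjusted p = 7.9e-10) and Z00074777-1 by 1.09 (SE 0.067, limma adjusted p = 1.8e-09). Z00025779-1 was higher by 0.96 (SE 0.093, limma adjusted p = 3.3e-07). These were the 3 largest, and 82 of the 150 called probes differed by at least 0.50.

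The one member that was lower was Z00017162-1, by -0.36 (SE 0.10, limma adjusted p = 0.009). The 19 without a call differed by -0.15 to 0.38, and 13 of them were not well above background on all 20 arrays. Among the brighter 139 probes, 132 were higher, and among the 31 dimmer ones 18 were. Z00034622-1 had the largest difference without a call, 0.38 with an SE of 0.16 (limma adjusted p = 0.067). A dim probe such as Z00054271-1, with 0.38 and an SE of 0.073, was called (limma adjusted p = 0.00042), and its signal was at least 1.39-fold higher than on day 2 after withdrawal. Z00078177-1 was also among those called higher, at 0.22 (SE 0.071). It was not well above background on any array of either group, so no direction is read for it.

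Of the 7 members that share sequence with each other, all but Z00061144-1 were called higher on day 1 in tamoxifen. Z00021796-1 and Z00074076-1, with the overlap of 27 bases, were higher by 0.69 (SE 0.083) and 0.73 (SE 0.069), both called. The 3 similar probes were also called, Z00033919-1 at 0.66, Z00034075-1 at 0.81 and Z00070676-1 at 0.58, with SEs of 0.080, 0.083 and 0.084. These can bind RNA from the same or related transcripts, so they are not separate pieces of evidence. The pair on opposite strands differed. Z00026891-1 read -0.28 and -0.48 on day 0, 0.42 and 0.34 on untreated day 1 and 0.52 and 0.35 in tamoxifen, and was called at 0.47 (SE 0.078, limma adjusted p = 0.00011). Z00061144-1 read -0.16 and -0.17, 0.15 and 0.11, and 0.02 and -0.06, and was not called at 0.16 (SE 0.070, limma adjusted p = 0.076). The second was not well above background on day 0, and the difference between the strands was not tested. A further 9 members share 20 bases with probes outside the selection. One of them, Z00075344-1, was 0.66 above day 0 on untreated day 1 and its partner outside the selection, Z00051556-1, 0.70 above it, with 0.69 and 0.66 in tamoxifen. Others were further apart from their partners, such as Z00073764-1 at 0.28 on untreated day 1, where Z00073020-1 was at 0.07. Z00030871-1, which was not well above background on day 0, was at 0.06, and its partners Z00030872-1 and Z00077565-1 were at -0.11 and -0.04.

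The probe at the start of Toe1, Z00075269-1, read -0.08 and 0.06 on day 0, 0.40 and 0.70 on untreated day 1, and 0.43 and 0.36 in tamoxifen. On day 2 after withdrawal it read 0.08 and 0.04. It was higher on day 1 in tamoxifen than there by 0.33 (SE 0.083, limma adjusted p = 0.0042). The day 1 arrays did not overlap those of day 0 or day 2. Z00052174-1, inside the annotated span of Stard13 but upstream of its listed start, was 0.36 above day 0 on untreated day 1 and 0.29 in tamoxifen.

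On day 3 continued and withdrawn tamoxifen separated few probes anywhere on the array, so a lack of calls is not particular to the members. Both groups lay on slide 4. No member was called by limma, 5 had an unadjusted p under 0.05, and the median difference was 0.02 with a range of -0.19 to 0.21. Over all tested probes 9.31% had an unadjusted p under 0.05, and few were called, with 0.153% higher and 0.367% lower in continued tamoxifen. On day 4, where withdrawn tamoxifen entered the selection, continued minus withdrawn had a loess median of 0.06 and 164 of the 170 were within 0.3. Over all tested probes the median was 0.01 and 3.88% were lower by at least 0.3, so a small difference there is not particular to the members. On the selection scale 139 members were within 0.3. On that scale 10 were lower by at least 0.3, against 8.65% of the tested probes.

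From day 2 to day 3 after withdrawal, on slides 3 and 4, 21 members were higher and 9 lower by limma at an adjusted p under 0.05, against 13.7% and 11.7% of all tested probes. The median was 0.03, so the members were near the background here. With Agilent's processed signals the counts were 10 and 7, and with median centring 30 and 5. They fell to 5 and 3 without the first withdrawn day 2 array, to 11 and 4 without the first withdrawn day 3 array, and to 8 and 5 without the second.

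Z00038589-1 showed the largest of these differences. It read -2.25 and -2.11 on day 2 after withdrawal and -1.72 and -1.66 on day 3, higher by 0.49 (SE 0.070, limma adjusted p = 8.2e-05). In continued tamoxifen on day 3 it read -1.78 and -1.77. Day 1 had been higher still, at -1.40 and -1.46 untreated and -1.42 and -1.44 in tamoxifen, and day 4 was back at -2.20 and -2.33 in continued tamoxifen. Z00041299-1 rose by 0.41 (SE 0.087, limma adjusted p = 0.0024) and Z00073983-1 by 0.40 (SE 0.074, limma adjusted p = 0.00087).

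On day 4 most of the probes went below their day 3 level in continued tamoxifen, on slides 5 and 4. By limma 105 were lower and 8 higher, and 57 were not called. Of all tested probes 20.5% were lower and 27.7% higher. The median was -0.25 with a range of -0.98 to 0.52, against 0.03 over all tested probes. Withdrawn day 4 was held within 1 of day 0 by the selection, and continued day 4 lay close to it. Continued minus withdrawn day 4 had a median of 0.06 over the members. How far the selection shaped the count of lower probes was not tested. The largest fall was in Z00000601-1, from 0.26 and 0.42 on day 3 to -0.51 and -0.76 on day 4, a difference of -0.98 (SE 0.090, limma adjusted p = 1.6e-07). Z00008992-1 went from 0.54 and 0.41 to -0.41 and -0.57, by -0.97 (SE 0.090, limma adjusted p = 1.7e-07). Z00062769-1 went from 0.56 and 0.74 to -0.12 and -0.36, by -0.89 (SE 0.096, limma adjusted p = 9.7e-07). All 3 had been high on day 1, with Z00062769-1 at 1.08 and 1.24 untreated and 1.31 and 1.24 in tamoxifen.

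Of the members that were lower on day 4, 103 were also among those higher on day 1 in tamoxifen than on day 2 after withdrawal, which is 98.1% of the first list and 68.7% of the second. Of all the members, 88.2% were in the second list and 61.8% in the first. Over all tested probes, 2702 were in both lists, 44.9% of those lower on day 4 and 50.5% of those higher on day 1. No array is shared by these comparisons. Across the 170 probes the 2 differences correlated at -0.488, and across all tested probes at -0.494, so the members' value was close to that of the array as a whole. Relative to day 0, both continued day 4 arrays were lower than both day 0 arrays for 95 of the members, where 34.6% of the tested probes had that order. Day 0 entered the selection, so this count is a description.

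The 8 members that were higher on day 4 were Z00003330-1, Z00032034-1, Z00041299-1, Z00041673-1, Z00063583-1, Z00073897-1, Z00074376-1 and Z00075188-1. Of these, Z00032034-1, at 0.20 (SE 0.076), was not well above background on any array of either group compared, so no direction is read for it. The same holds for Z00078177-1, which was among the 105 lower members at -0.21 (SE 0.071). Z00074376-1 had the largest difference of the 8. It read -1.10 and -1.07 on day 0, -0.45 and -0.16 on untreated day 1, and -0.40 and -0.38 in tamoxifen. It then read -1.23 and -1.20 on day 2 after withdrawal, -0.93 and -0.80 on continued day 3 and -0.39 and -0.31 on continued day 4, higher by 0.52 (SE 0.077, limma adjusted p = 2.6e-05). Day 4 thus reached the day 1 level for this probe. Z00041299-1 read 0.92 and 0.89 on untreated day 1, but 0.32 and 0.56 in tamoxifen, and 0.52 and 0.55 on continued day 3 and 0.77 and 0.86 on continued day 4.

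In the selection's own contrast, untreated day 1 minus day 0, limma at an adjusted p under 0.05 had 161 members higher and 1 lower, where 19.6% of all tested probes were higher, and nothing is read from that count.

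The position and base composition of the probes were close to those of the array. Their median GC content was 45.0%, the same as for the probes above background on both untreated day 1 arrays, and the median spot row was 268 against 271 for those. Searched on the probe strand, ATTTA, the core of AU-rich elements, occurred in 10 of the 170 members (5.88%) and in 7.25% of all probes. On either strand it occurred in 12.9% and 14.3%. AATAAA occurred in 7.65% of members and 6.93% of all probes on the probe strand, and in 10.6% and 10.1% on either. Matches of this kind are descriptions of 60-base windows.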

How the data were processed

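Per the file headers, the authors' scanner files were written by Agilent Feature Extraction 9.5.1.1 and hold linear intensity values of both channels, with Agilent's own background-subtracted and dye-normalized processed signals. The deposited value table is on a log10 scale and follows the sample channel (r of 0.9935 to 0.9973 with log10 processed signal). Its centring and normalization are not given in the sources used here. Its column medians were 2.305 to 2.336.

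For the tests, mean signals were corrected with normexp (offset 50), with 6 local backgrounds above 10 times the channel median replaced by the array's median, a choice made after seeing the data. Loess within arrays followed, with control spots at weight 0, and 91 non-uniform values were left out. Probes whose sample channel passed the background flag on both arrays of any group (29414, with all 170 members) entered one group-means model of all 20 arrays (lmFit and eBayes of limma 3.58.1, R 4.3.3), with Benjamini-Hochberg adjustment over all of them. Of the members, 164 also passed through a group the selection did not use. The fit was tested on simulated data. Folds given as "at least" set the bright group's mean normalized log2 sample signal against the higher of the dim probe's signal and the lowest signal well above background on each array. With 2 arrays per group, the tests see only the spread between arrays of a group, and that may be technical.

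The members, the lists and the rules were chosen with earlier results of these data known. Named probes were the 10 largest differences with untreated day 1 above all other arrays, the 3 highest and 3 lowest in day 1 tamoxifen, the 3 on each side of the limit and the 3 largest called per comparison. Others, such as probes sharing sequence, were named after their values were seen. Gene lists and cell type markers could not be applied, since no probe has a gene name here. Alternatives changed the background correction, scaling, filter, threshold, arrays and a replicate block.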

Additional observations from a re-analysis of the deposited data

How the results depend on the processing

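The counts of members called kept within 1.5 times under most alternatives, and exceptions are given here. With the local backgrounds as given, the calls between days 3 and 2 after withdrawal dropped from 30 to 10, and the members lower on day 4 from 105 to 68. Calls over all tested probes dropped too. Between days 3 and 2 they went from 4019 higher and 3455 lower to 1624 and 1495. Those lower on day 4 went from 6017 to 4218. Agilent's processed signals gave 17 calls between days 3 and 2. The deposited value table, which holds 107 of the members, gave 98 higher on day 1 in tamoxifen and 18 calls between days 3 and 2. Of the 18098 tested probes it holds, 3985 were higher on day 1 in tamoxifen. Between days 3 and 2, 2516 of them were higher and 2420 lower. Leaving out 1 array of a compared group gave 137 to 144 members higher on day 1 in tamoxifen, 0 calls on day 3, 8 to 21 calls between days 3 and 2, and 85 to 103 lower on day 4. Leaving out an array also lowered the calls over all tested probes. The cause of the drop in member calls between days 3 and 2 was not tested.

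The number of probes found changed more. It was 170 as reported, 100 with the loess values (58 shared), 60 with a limit of 1 in place of 0.8, 485 with 0.6, and 273 without the condition on background. It was 346 without the first untreated day 1 array (156 shared), and 162 to 346 over the 4 arrays of day 0 and untreated day 1 left out in turn. With day 1 in tamoxifen in place of untreated day 1, chosen after seeing the data, 175 probes were found, of which 96 were members (56.5% of the members, 54.9% of the other list). The median difference from day 0 on untreated day 1 was 0.94, and 0.68 on the loess scale. In tamoxifen it was 0.85, and 0.60 on the loess scale, 0.91 in the sample channel alone and 0.83 to 0.88 without either day 0 array. No direction reversed.

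Median centring moved the split of all tested probes. From day 1 in tamoxifen against day 2 after withdrawal it went from 5346 higher and 6304 lower to 3394 and 6966, between days 3 and 2 from 4019 and 3455 to 4957 and 1707, and on day 4 from 8139 and 6017 to 5711 and 8248. On day 3 the split of 45 and 108 became 36 and 50, and 7 and 29 with processed signals. Other scalings moved the splits less, but some past even. The sample channel alone gave 5586 and 5103 in the first comparison, 3351 and 3538 between days 3 and 2, and 6289 and 6412 on day 4. Processed signals gave 2728 and 3105 between days 3 and 2, and the deposited values gave 4709 and 4826 on day 4. Leaving out the first untreated day 1 array, added after seeing the data, gave 152 higher on day 1 in tamoxifen, 0 on day 3, 34 between days 3 and 2 and 108 lower on day 4. No alternative gave a member call between continued and withdrawn tamoxifen on day 3.

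With the replicate block 150 members were higher on day 1 in tamoxifen, 0 were called on day 3, 31 between days 3 and 2, and 103 were lower on day 4. In that fit 5357 of the 29414 tested probes were higher on day 1 in tamoxifen, and 6027 were lower on day 4. Between days 3 and 2, 3980 were higher and 3441 lower. The labels share only numbers. Same-numbered arrays deviated together at r of 0.164 in the first of these comparisons and -0.00893 to -0.0056 in the others. Dim probes limit what can be read, since 13 members were above background on neither day 0 array and 18 on neither continued day 4 array.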
